A study of Caenorhabditis elegans with 2 samples.

Results

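Dense bodies anchor the contractile filaments of body wall muscle to the cell membrane in Caenorhabditis elegans. The 10 genes described here were listed as genes of these attachments. They are the integrin genes pat-2 and pat-3, the kindlin gene unc-112, the integrin-linked kinase gene pat-4, the parvin gene pat-6, the PINCH gene unc-97, unc-95, unc-98, the vinculin gene deb-1 and the alpha-actinin gene atn-1. They were listed by what their proteins do, with earlier results of these data known, and they are 10 of 19973 protein-coding genes on the 6 nuclear chromosomes of the Ensembl annotation. The study mapped UNC-62, a homeodomain transcription factor of the Meis/Prep family, by chromatin immunoprecipitation with sequencing. The material was whole embryos of mixed stage and mixed sex, of unknown age, from the strain OP600. This strain carries the allele unc119(ed3) and the integrated transgene wgIs600, which holds a copy of unc119 and encodes UNC-62 fused to TY1, EGFP and FLAG tags; the labels list unc-62 as the antibody and describe the target as the eGFP-tagged protein. There was 1 group with 2 biological replicates, each from its own biosample of the same strain, and no second condition. The control library that the deposited descriptions name was not analysed here. All embryonic tissues entered each library, so the cells from which a peak came were not resolved, and peak lists hold no expression values against which the share of muscle could be checked.

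In a dense body, an alpha and a beta integrin span the membrane, bind the basement membrane outside and hold a set of adaptor proteins inside. The kindlin UNC-112 binds the tail of the beta integrin and also binds PAT-4, which sits in a complex with PAT-6 and UNC-97. Vinculin and alpha-actinin connect this base to actin filaments, in the way that focal adhesions and Z-discs do in vertebrates. Worms that lack an early component of the attachments fail to assemble muscle and arrest as paralysed embryos, the Pat phenotype after which several of these genes are named. UNC-62 acts with homeodomain partners of the PBC class and with Hox proteins.

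UNC-62 peaks lay at the starts of most of these genes. The main list holds the 2754 peaks that the authors kept for reproducibility by their irreproducible discovery rate (IDR), 2732 of them on nuclear chromosomes. In it, 6 of the 10 genes had a summit from 1000 bp upstream to 500 bp downstream of the outermost annotated start, namely pat-3, pat-6, unc-112, unc-97, unc-95 and unc-98. Of all protein-coding genes, 6.18% had a summit in that window. In all 6 the summit lay upstream of the start, by 34 to 784 bp. With the window reaching 2000 bp upstream, atn-1 (1113 bp upstream) and deb-1 (1481 bp upstream) were added, which made 8 of 10 against 8.89% of all genes. The alpha integrin gene pat-2 had its only summit farther out, at 3020 bp, and pat-4 alone had none within 10 kb of its body. A summit within 10 kb was thus present for 9 of 10 genes, against 36.8% of all genes. This span includes the gene body, and the members' median length was 5010 bp, against 2030 bp for all protein-coding genes. The part of gene length in this count was not tested. In its own introns, only unc-112 of the 10 had a summit, against 2.93% of all genes.

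**Figure D1:**
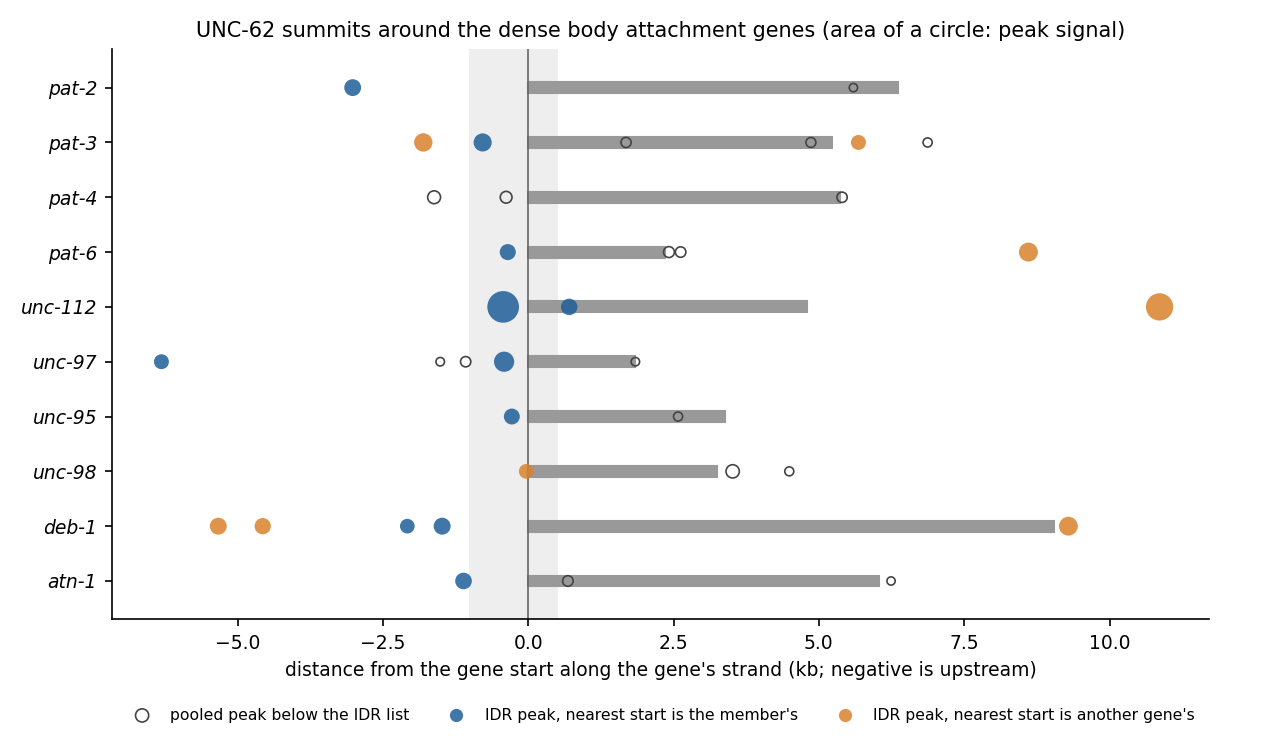
Summits around the 10 genes, by distance from the gene start along the gene's strand in kb. Grey bars are the annotated gene bodies, the shaded band is the start window, filled circles are IDR peaks (blue where the nearest gene start is that of the member, orange where it is another gene's) and open circles are pooled peaks below the IDR list, drawn only within 2000 bp of a gene body; the area of a circle is the authors' peak signal. The largest circle is the unc-112 peak 431 bp upstream, and pat-4 has open circles only.

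Altogether, 19 IDR summits lay within 10 kb of the 10 gene bodies, and none was counted for more than 1 of them. For 11 of the 19 the nearest protein-coding start was that of the member, and 10 of these 11 lay upstream of it. The other 8 lay nearest to another gene's start, and that gene is named with each below. A median of 1.5 summits lay within 10 kb of a member, and of 0 over all genes. The signal given for a peak is the value the authors' peak caller assigned to it. It has no unit that compares between lists, so ranks by signal within a list are printed with it.

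The beta integrin gene pat-3 (WBGene00003930, minus strand, chrIII:3908931-3914149) had a peak at its start, at chrIII:3914745-3915120, with the summit 784 bp upstream. Its signal was 56.1 in replicate 1 (rank 1611 of 21749) and 40.1 in replicate 2 (rank 1095 of 30000), and 94.7 in the IDR list (rank 1379 of 2754). A further peak lay 1805 bp upstream of pat-3, in the same intergenic stretch of 2817 bp that separates pat-3 from the divergent gene ccdc-47. That summit was closer to ccdc-47, 1013 bp upstream of its start, and its signals were 53.0 and 46.9 in replicates 1 and 2. The third pat-3 peak lay beyond the end of the gene, 781 bp upstream of mmcm-1, with the lowest signal of the 3 in the IDR list (64.7). Thus the pat-3 peaks were of middle to low rank, and both upstream ones were among the 2754 strongest of each replicate.

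The alpha integrin gene pat-2 (WBGene00003929, plus strand, chrIII:8818899-8825266) had its peak far upstream, at chrIII:8815691-8816066, inside a gap of 9603 bp to the divergent gene prx-19. The signal was 57.3 in replicate 1 (rank 1544), 28.4 in replicate 2 (rank 2080) and 82 in the IDR list. No peak of the pooled list lay in the start window of pat-2, and the list of replicate 1 held only a weak peak there (signal 11.3, rank 18797). The sequences around the summits of the integrin genes are shown because both hold GAGAGA, a repeat common under UNC-62 summits in these embryos. They are 101 bases centred on the summit, on the strand of the gene and on build ce11, with GAGAGA in capitals.
pat-3, chrIII:3914883-3914983, minus strand: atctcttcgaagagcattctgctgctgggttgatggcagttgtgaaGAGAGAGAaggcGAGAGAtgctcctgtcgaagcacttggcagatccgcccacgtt
pat-2, chrIII:8815829-8815929, plus strand: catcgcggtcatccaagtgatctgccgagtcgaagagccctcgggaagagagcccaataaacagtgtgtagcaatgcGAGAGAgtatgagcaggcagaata

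The kindlin gene unc-112 (WBGene00006836, minus strand, chrV:14691855-14696654) had the strongest peak of the 10 genes. It covered chrV:14696998-14697182, with the summit 431 bp upstream of the start in the 2311 bp between unc-112 and the divergent gene set-5. Its signal was 172.0 in replicate 1 (rank 103) and 117.3 in replicate 2 (rank 69), and 288.7 in the IDR list (rank 78). The replicates' summits were 6 bp apart. The peak was 185 bp wide, while 17 of the 19 peaks had the width of 376 bp that 86.9% of the IDR list shares. In both replicates this peak ranked far above those at the other 5 members with a start summit, of which the highest ranks were 938 in replicate 1 and 956 in replicate 2.

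A weaker unc-112 peak was the only intronic one of the 10 genes. Its summit lay 705 bp downstream of the start, in intron 2, which runs over chrV:14695070-14696063 and is 994 bp long. The signal was 56.0 in replicate 1 (rank 1620), 24.5 in replicate 2 (rank 2694) and 78 in the IDR list. The strong peak at 10861 bp downstream of the unc-112 start (signal 214.4, rank 205) lay in an intron of hsp-90 and 308 bp upstream of C47E8.4. It is counted here only because it fell within 10 kb of the unc-112 body.

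The genes of the complex of PAT-4, PAT-6 and UNC-97 differed among themselves. The PINCH gene unc-97 (WBGene00006826, plus strand, chrX:5593133-5594965), whose LIM-domain product binds PAT-4, had the second strongest start peak of the 10. Its summit lay 415 bp upstream, in the peak chrX:5592530-5592905, with signals of 73.7 in replicate 1 (rank 938), 43.2 in replicate 2 (rank 956) and 117.7 in the IDR list. The replicates put this summit 143 bp apart, so its position is known less well than that of unc-112. A second peak counted for unc-97 lay 6310 bp upstream, in an intron of mec-2, with a signal of 64.4 in the IDR list.

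The parvin gene pat-6 (WBGene00003932, minus strand, chrIV:261886-264232) had a start peak at chrIV:264396-264771, with the summit 352 bp upstream. The signal was 49.6 in replicate 1 (rank 1948), 25 in replicate 2 (rank 2587) and 74.3 in the IDR list. The replicates' summits were 15 bp apart. A stronger peak (103.9) lay 8605 bp downstream of the pat-6 start, and it was 198 bp upstream of rcat-1.

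The kinase gene pat-4 (WBGene00003931, minus strand, chrIII:89453-94809) had no IDR peak within 10 kb. Weaker peaks lay upstream of it and past its end. The pooled list held a peak with the summit 380 bp upstream, with a signal of 39.7 (rank 4726 of 17083), below the lowest signal of the IDR list, 59.9. Its signal was 25.7 in replicate 1 (rank 4847) and 14.9 in replicate 2 (rank 7963). Of all genes, 10.4% had a pooled peak at least as strong in the start window. A second pooled peak, 1619 bp upstream, had a signal of 47.7 (rank 3698), with 27 in replicate 1 (rank 4539) and 19.2 in replicate 2 (rank 4341). Since the depth of the libraries is unknown, the missing IDR peak does not show that UNC-62 was absent from pat-4. Just inside the IDR list, the weakest start peak of the 10 genes, at unc-98, had a signal of 62.2 in the IDR list.

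The sequences of the complex show what lay within 50 bp of the summits. They are 101 bases centred on each summit, on the strand of the gene, with the Meis core site TGACAG (unc-112, where it is read on the opposite strand as CTGTCA) and the repeat GAGAGA (pat-6, read as TCTCTC) in capitals. The unc-97 summit held neither. The unc-112 peak also held TCTCTC, just beyond the 101 bases shown.
unc-112, chrV:14697035-14697135, minus strand: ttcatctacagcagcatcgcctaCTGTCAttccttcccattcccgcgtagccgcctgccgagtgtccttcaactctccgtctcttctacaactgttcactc
pat-6, chrIV:264534-264634, minus strand: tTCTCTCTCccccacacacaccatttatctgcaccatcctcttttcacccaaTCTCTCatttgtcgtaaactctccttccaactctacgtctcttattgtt
unc-97, chrX:5592668-5592768, plus strand: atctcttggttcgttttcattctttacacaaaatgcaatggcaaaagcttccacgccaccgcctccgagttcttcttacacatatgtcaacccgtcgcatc

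The vinculin gene deb-1 (WBGene00000942, minus strand, chrIV:7085215-7094266) had the most summits of the 10, with 5 within 10 kb, all outside its body and its start window. Of all genes, 0.531% had at least 5 summits within 10 kb. The nearest upstream peak, at chrIV:7095559-7095934, had its summit 1481 bp upstream and signals of 59.2 in replicate 1 (rank 1462), 26.0 in replicate 2 (rank 2433) and 82.9 in the IDR list. The replicates' summits for it were 152 bp apart, the widest of the 19. The next lay 2080 bp upstream, with signals of 34.9 (rank 3206) and 28.9 (rank 2014), and there the replicates' summits were 1 bp apart. The peaks 4568 and 5332 bp upstream were closer to ZC477.4, an annotated gene of 243 bp on the same strand, at 50 and 814 bp from its start. The last deb-1 peak lay past the end of the gene, 291 bp upstream of the ribosomal protein gene rps-4, with the highest signal of the 5 in the IDR list (102.5). The 4 annotated start positions of deb-1 do not change its count, since no summit of the IDR list lay in the window of any of them. The list of replicate 2 held weak peaks in the start window (strongest signal 17.4, rank 5447), and that of replicate 1 held none.

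The alpha-actinin gene atn-1 (WBGene00000228, plus strand, chrV:12478411-12484449) had 1 IDR peak, at chrV:12477110-12477485, with the summit 1113 bp upstream, just outside the start window. Its rank differed between the replicates, with a signal of 60.1 in replicate 1 (rank 1420) against 18.0 in replicate 2 (rank 5020). The authors' −log10 q-value for the peak was 2.61 in replicate 1 and only 0.47 in replicate 2. In the IDR list the signal of the atn-1 peak was 79.6. A pooled peak below the IDR list (signal 32.2, rank 6235) lay in an intron of atn-1, 682 bp downstream of the start. The deb-1 summit at 2080 bp is shown because it alone of the 19 held a PBC-Hox sequence that was searched for, TGATTGAT or TGATTTAT. It held TGATTGAT, here read on the opposite strand as ATCAATCA and in capitals. Other variants of the PBC-Hox site were not searched for.
deb-1, chrIV:7096296-7096396, minus strand: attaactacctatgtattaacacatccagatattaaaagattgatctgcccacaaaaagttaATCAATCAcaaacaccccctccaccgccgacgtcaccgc

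Attachment proteins that are also seen in nuclei are encoded by unc-95, a LIM-domain gene, and unc-98, a gene of a C2H2 zinc finger protein that binds UNC-97. Both had weak start peaks. The unc-95 gene (WBGene00006824) had its summit 282 bp upstream, with a signal of 38 in replicate 1 (rank 2868), 29.1 in replicate 2 (rank 1991) and 73.1 in the IDR list. The unc-98 gene (WBGene00006827, minus strand, chrX:7570374-7573619) had its summit 34 bp upstream, with a signal of 45.2 in replicate 1 (rank 2224) and 20.8 in replicate 2 (rank 3638). The authors' −log10 q-value for the unc-98 peak was 2.69 in replicate 1 and only 0.75 in replicate 2. With the 2754 strongest peaks of replicate 1 alone unc-95 was lost, and with those of replicate 2 alone unc-98 was lost, so that 5 of the 10 genes had a start summit in either case. The unc-98 summit lies in an intron of pcyt-1, a gene on the other strand, and 25 bp upstream of the start of F08C6.18, an annotated protein-coding gene of 39 bp that overlaps the start of unc-98. The unc-98 peak therefore cannot be assigned to a single gene by distance.

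Across replicates, these peaks ranked much as nuclear IDR peaks did in general, all of which the authors had kept for reproducibility. Of the 19 peaks, 13 were among the 2754 strongest of both replicates, and of all nuclear IDR peaks 71.0% were. The better rank was in replicate 1 for 10 of the 19 and in replicate 2 for 9. Of nuclear IDR peaks found in both lists, 53.4% ranked better in replicate 1. The median distance between the replicates' summits was 28 bp for the 19 and 28 bp for the 2706 nuclear IDR peaks found in both lists. The replicates' summits were at most 50 bp apart for 12 of the 19, and for 70.8% of those nuclear IDR peaks. The lists of the replicates also hold background peaks, so a peak of any strength is common in them: 33.3% of all genes had one in the start window in replicate 1 and 42.4% in replicate 2, and 9 and 8 of the 10 members did.

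**Figure D2:**
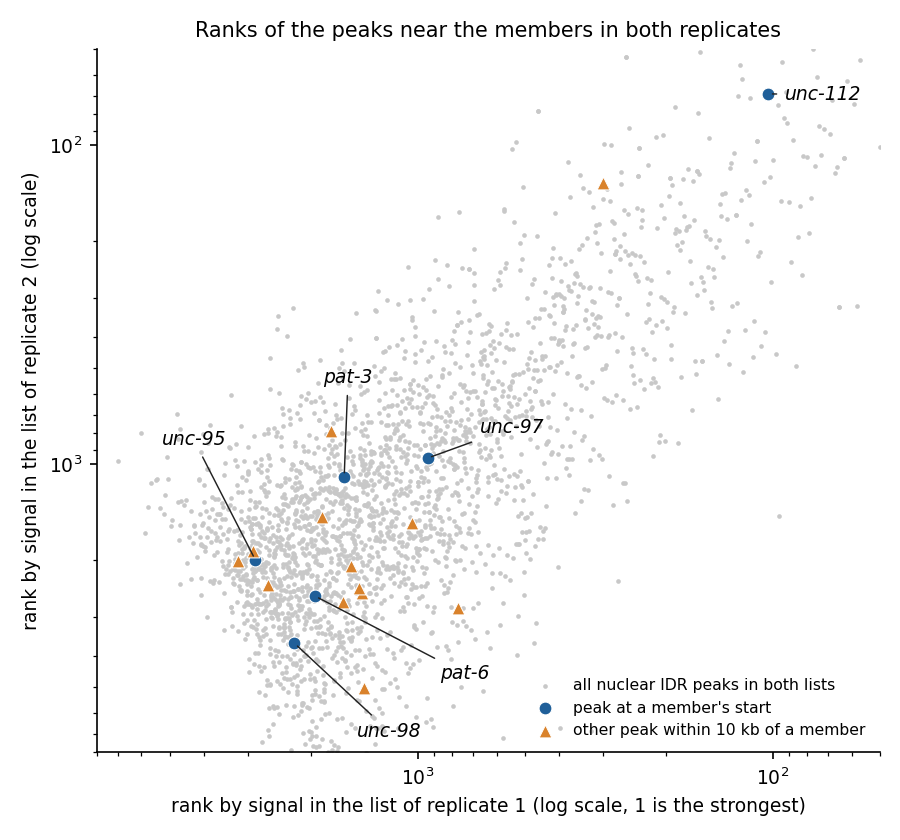
Rank by signal in replicate 1 against rank in replicate 2, both on log axes with the strongest peaks at the upper right, for all nuclear IDR peaks in both lists (grey), peaks at the start of a member (blue circles, named) and other peaks within 10 kb of a member (orange triangles). The axes show ranks from 50 to 8000 and peaks outside them are not drawn; unc-112 (ranks 103 and 69) stands apart from the other 5 start peaks, which have ranks from 938 to 3638.

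Most of these peaks were not strong ones. The median signal of the members' start peaks was 84.5 in the IDR list, and the median of the strongest start peak was 90.5 over the 1234 genes that had one. Of the 19 peaks, 7 were above the median of nuclear IDR peaks, 94.4. In the stronger 1377 peaks of the IDR list only unc-112 and unc-97 of the 10 had a start summit, and 2.86% of all genes had one. The median start summit of the members lay 383.5 bp upstream, and over all genes with one the median offset from the start was -269 bp, where negative is upstream. An upstream position was also usual among other genes, with 90.6% of them having their strongest start summit upstream.

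The stretches upstream of these genes were longer than those of most genes. Of the 10, 9 start outside any other protein-coding gene, and their gap to the next one upstream ran from 1973 to 9603 bp, with a median of 2817 bp, against a median of 1058 bp over all 18577 genes of that kind. Among the 6368 genes with a gap of at least 1973 bp, a comparison chosen after seeing the data, 6.19% had a summit in the start window. The part of gap length in the members' count was not tested.

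Some genes listed as partners of these attachments also had summits at their starts. The list of partner genes holds 22 genes chosen around dense bodies, M-lines and the matrix they bind, among them those of talin, paxillin, zyxin and perlecan. A start summit was present for 4 of the 22 (18.2%), against 60% of the 10 and 6.18% of all genes, and the difference between the lists was not tested. They were rsu-1, whose product is related to the mammalian Ras suppressor that binds PINCH, ina-1, which encodes the other alpha integrin, pfn-3, a profilin gene, and pix-1, which encodes a PIX-family exchange factor. The rsu-1 peak was 402 bp upstream (signal 151.5, rank 516), with 96.9 in replicate 1 (rank 526) and 51.7 in replicate 2 (rank 647). The other 3 were weak, with signals of 62.6 at ina-1 (360 bp upstream), 66.2 at pfn-3 (138 bp upstream) and 67.0 at pix-1 (227 bp upstream). The partner count was 2 in the 2754 strongest peaks of replicate 1 (rsu-1 and ina-1) and 5 in those of replicate 2.

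An intronic summit was present in 7 of the 22 partner genes (31.8%) and in 1 of the 10 members, against 2.93% of all genes, and the difference between the lists was not tested. Their median length was 14500 bp, against 5010 bp for the 10 and 2030 bp for all protein-coding genes, and the part of gene length in this count was not tested. Counted from any annotated transcript start, 7 partner genes had a summit and 6 members did, against 6.86% of all genes.

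Genes of the filaments that dense bodies and M-lines hold also had start summits, which 6.18% of all genes had. Of 14 thin filament genes, which encode actins, tropomyosin, troponins and actin-binding proteins, 9 had one (64.3%). Of 11 thick filament genes, which encode myosins, paramyosin and giant kinases, 5 had one (45.5%). All of these start peaks were among the 2754 strongest of replicate 1, but not all were in replicate 2. There, the lowest ranks were 8270 among the thin and 5949 among the thick filament start peaks. For a thick filament start peak no overlapping peak was found in replicate 2. The signals of the thin filament start peaks in the IDR list ranged from 62.9 to 188.5, all below the 288.7 of unc-112. The actin genes have near-identical copies, so their single values are uncertain. A summit within 10 kb was also present for 18 of 22 partner, 13 of 14 thin and 11 of 11 thick filament genes, against 36.8% of all genes. Differences between these lists were not tested.

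**Figure D3:**
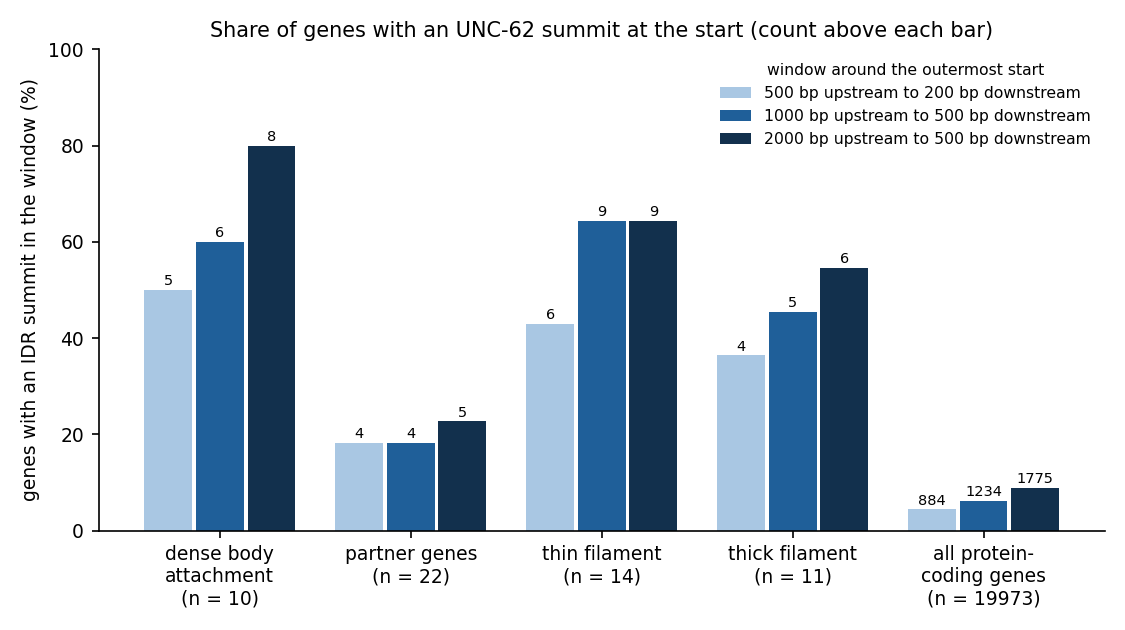
Percentage of genes with an IDR summit in each of 3 windows around the outermost start, for the 10 attachment genes, 22 partner genes, 14 thin filament genes, 11 thick filament genes and all 19973 protein-coding genes; numbers above the bars are counts of genes. In the main window (1000 bp upstream, 500 bp downstream) the counts are 6, 4, 9, 5 and 1234.

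Known recognition sites lay under some of these summits, as they did under nuclear IDR summits in general. Each motif was searched on both strands within 50 bp of the summit, and shares are given for the 19 summits, for all 2732 nuclear IDR summits and for windows of the same 101 bases 500 bp to each side. The Meis core site TGACAG was present in 2 of 19 (10.5%), against 12.8% of nuclear IDR summits and 3.4% of the side windows. They were the unc-112 start summit, with the site centred 24.5 bp from it, and the summit near rcat-1 downstream of pat-6. The PBC-Hox site TGATTGAT was present in 1 of 19, against 3.4% of nuclear IDR summits and 0.549% of the side windows. For TGATTTAT it was 0 of 19, against 2.67% and 0.824%.

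The repeat GAGAGA was present in 7 of 19 (36.8%), against 31.9% of nuclear IDR summits and 5.82% of the side windows. At the pat-3 start it occurred 3 times, centred 0.5, 1.5 and 10.5 bp from the summit, with overlapping copies. At the pat-6 start it also occurred 3 times, centred 4.5, 44.5 and 46.5 bp away. The E box CANNTG, a short sequence that basic helix-loop-helix factors bind, was present in 9 of 19, against 49.4% of nuclear IDR summits and 31.1% of the side windows. Of the 11 summits nearest to a member's own start, 3 held none of TGACAG, TGATTGAT, TGATTTAT and GAGAGA, namely those at the starts of unc-97 and unc-95 and upstream of atn-1. Of all 19 summits 9 held none of the 4 (47.4%), and of nuclear IDR summits 54.5% held none. A match to a short motif is a description of the sequence and does not show that a protein bound there.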

How the data were processed

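ChIP-seq peak lists of UNC-62 were analysed from 2 biological replicates; 4 lists on build ce11 were used, and the same lists on ce10 were not. Per the file headers and deposited description files, the authors listed peaks with background for each replicate and for both pooled, each against a control, and derived the optimal IDR list from these. No source used here names the aligner, the caller or the IDR threshold. The peak signal and the −log10 q-value are as deposited by the authors; the signal was used only to describe and rank peaks within a list. Depth is unknown, so no interval is given.

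Summits were placed on the Ensembl release 115 annotation (WBcel235, the same assembly as ce11) with Python 3.11.15, pandas 2.3.3 and numpy 2.4.6, using the outermost start of each protein-coding gene. The replicate value of an IDR peak is the strongest peak of that replicate overlapping it by at least 1 bp. Sequences and motifs were read from the RefSeq genome of the same assembly. The window count was tested on simulated data. With 1 group, no test between groups was made, and lists are given by counts beside all genes. All 10 members, the partner genes with a start summit and the nearest neighbouring genes are named. Of 15 thin filament genes listed, 14 were found by symbol in the annotation; unc-89 is in both the partner and thick filament lists. The members and lists were chosen with earlier results of these data known.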

Additional observations from a re-analysis of the deposited data

How the results depend on the processing

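Of 31 alternative settings, 21 left the count within 1.5 times the main value and 10 moved it. In the stronger 1377 peaks of the IDR list, 2 members and 1 partner gene had a start summit (2.86% of all genes), 0 members had an intronic summit (1.66%) and 5 had one within 10 kb (21.4%). Counted from any transcript start, 7 partner genes had a summit (6.86% of all genes). Using the strongest peaks of 1 replicate alone, the members with a start summit numbered 5 to 5, partner genes 2 to 5, members with an intronic summit 1 to 1 and members within 10 kb 8 to 8, with atn-1 lost without replicate 1 and unc-95 lost without replicate 2. Within 25 bp of the summit, TGACAG was found in 1 of 19 (7.5% of nuclear IDR summits), GAGAGA in 4 (17.3%) and CANNTG in 4 (29.2%); within 100 bp GAGAGA was found in 15, where 49.3% of nuclear IDR summits held it. The cause of the changes was not tested beyond the fewer peaks or other window widths that each setting uses by construction. No paired analysis was possible because there is 1 group and no test. Library depth is unknown, so a gene without a peak, such as pat-4, is not shown to lack UNC-62.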
